A study of Mus musculus with 18 samples.

Results

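The guanylate-binding proteins (GBPs) were described in bone marrow-derived macrophages (BMMs) of 3 mouse genotypes, untreated and after lipopolysaccharide (LPS). The family was taken as the genes Gbp2, Gbp2b, Gbp3, Gbp4, Gbp5, Gbp6, Gbp7, Gbp8 and Gbp9, looked up by name and then by gene and transcript identifier among the 38887 genes of each library. Of these 9 genes, 8 were measured, and Gbp6 had no entry under its current identifier. All groups were BMMs of female C57BL/6J mice, 10 to 23 weeks old, differentiated for 6 days with 50 ng/ml M-CSF and carrying Cre recombinase at the myeloid gene Lyz2. WT mice carried this Cre alone. GILZ KO mice lost exon 6 of Tsc22d3 (Gilz), which encodes the glucocorticoid-induced leucine zipper, in cells that express Lyz2. GILZ TG mice had a Gilz cDNA in ROSA26, silent until Cre cut out a stop cassette. Each genotype had 3 untreated libraries and 3 with 100 ng/ml LPS for 4 h, which makes 6 groups and 18 libraries. Within a group the libraries are separate cell preparations. The labels do not say whether untreated and LPS libraries with the same number share a preparation.

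GBPs are large GTPases that are made in quantity when interferons act on a cell. They gather on the vacuoles of intracellular pathogens and on the surface of bacteria that have reached the cytosol, and they help to expose bacterial LPS and DNA to the sensors of the inflammasomes. In macrophages LPS induces interferon-beta, which acts back on the cells through its receptor, and the GBP genes are classical targets of this loop and of interferon-gamma.

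The listed genes lie in 2 clusters (coordinates of the GRCm38 assembly, GENCODE M21 annotation). On the forward strand of chromosome 3 they follow each other as Gbp5 (chr3:142493978-142522344), Gbp7 (chr3:142530342-142550149), Gbp3 (chr3:142560026-142573209), Gbp2b (chr3:142594847-142619179) and Gbp2 (chr3:142620602-142638008). On the reverse strand of chromosome 5 the annotated spans of Gbp8 (chr5:105014150-105139540), Gbp9 (chr5:105077630-105139539) and Gbp4 (chr5:105115767-105139586) overlap, and Gbp6 (chr5:105270702-105293698) lies apart from them. Of the 75-base stretches in their transcripts, 7.97% for Gbp8, 2.79% for Gbp9 and 5.29% for Gbp4 also occur in other genes. The split of reads from those stretches rests on the authors' counting.

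**Figure D1:**
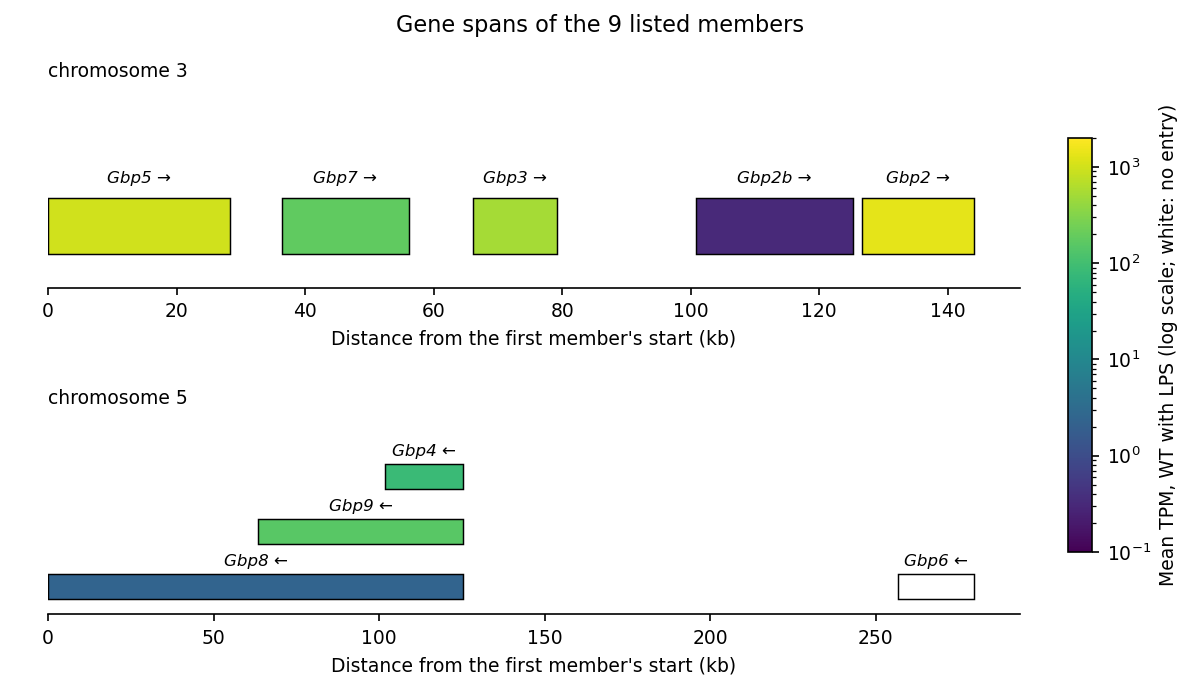
Gene spans of the 9 listed genes, with the distance in kb from the first gene's start on the x axis, arrows for the strand and colour for the mean level (TPM, log scale) of the 3 WT libraries with LPS. Gbp2b, at 0.313 TPM, sits between Gbp3 at 519 TPM and Gbp2 at 1340 TPM, and Gbp6 is white because it had no entry.

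The files carry an older annotation, so names were assigned by transcript. The identifier that the deposited comparison tables call Gbp2b (ENSMUSG00000040264) holds the transcript ENSMUST00000090127.2, which belongs to Gbp5. The transcript of Gbp2b (ENSMUST00000029936.4) stands under ENSMUSG00000028269. By name alone 7 of the 9 genes would have been found, and the values of Gbp5 would have been read as Gbp2b. In place of Gbp6 the data hold Gm43302 (ENSMUSG00000079362). Its transcript contains 86.0% of the 75-base stretches of a protein-coding transcript of Gbp6, and 60.2% of its own stretches also occur in Gbp10. Its values are therefore given as Gm43302. Reads from stretches that Gbp6, Gbp10 and Gm43302 share cannot be told apart here, and Gbp6 had no entry to which its reads could be assigned. The measured members share few such stretches with other genes, from 0.067% for Gbp5 to 7.97% for Gbp8.

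The 300 bases around the transcription start (250 before and 50 after it) are shown for Gbp5, Gbp2b and Gbp2 of the chromosome 3 cluster. Gbp5 and Gbp2 were among the most abundant members after LPS, and Gbp2b was barely detected. The sequences are RefSeq's for GRCm38.p6, forward strand, which had entries for 5 of the 9 genes. For Gbp5 the window lies inside the GENCODE span given above, which begins at chr3:142493978, so the 2 annotations place its start apart. Capitals mark matches to 2 motifs searched on both strands, the interferon-gamma activated site GAS (TTCNNNGAA) and the core of the interferon-stimulated response element ISRE (GAAANNGAAA). No 2 of the capitalised matches overlap.
Gbp5 (chr3:142496684-142496983): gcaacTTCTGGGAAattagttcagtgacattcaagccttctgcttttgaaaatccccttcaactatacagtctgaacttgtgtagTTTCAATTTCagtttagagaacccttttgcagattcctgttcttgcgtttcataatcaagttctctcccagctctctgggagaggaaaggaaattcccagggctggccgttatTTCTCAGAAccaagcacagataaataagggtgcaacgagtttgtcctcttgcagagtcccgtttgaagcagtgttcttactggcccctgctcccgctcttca
Gbp2b (chr3:142594597-142594896): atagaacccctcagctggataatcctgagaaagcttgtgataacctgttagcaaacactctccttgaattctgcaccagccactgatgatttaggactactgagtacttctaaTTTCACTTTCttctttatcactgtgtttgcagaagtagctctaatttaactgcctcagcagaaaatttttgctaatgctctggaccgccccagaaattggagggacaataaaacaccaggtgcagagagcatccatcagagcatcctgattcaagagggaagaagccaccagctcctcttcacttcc
Gbp2 (chr3:142620413-142620712): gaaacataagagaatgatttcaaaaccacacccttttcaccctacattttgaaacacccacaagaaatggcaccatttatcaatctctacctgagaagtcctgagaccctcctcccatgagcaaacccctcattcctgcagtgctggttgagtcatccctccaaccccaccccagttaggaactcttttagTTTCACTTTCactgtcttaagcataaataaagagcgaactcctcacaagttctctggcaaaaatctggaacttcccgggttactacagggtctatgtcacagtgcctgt
The ISRE letters were found in the window of each of the 5 genes with an entry, and 3.44% of all 32851 promoter windows of that length hold them. Gbp2b and Gbp2 carried the same 10 letters, TTTCACTTTC, which start 137 and 59 bases before the transcription start. Gbp7 held TTTCAGTTTC 53 bases before its start. One of the 2 windows of Gbp3 held 2 overlapping matches, TTTCAGTTTC and TTTCTATTTC, and the other window held none. The GAS letters had 2 matches each in Gbp5 and Gbp7 and none in the windows of Gbp3, Gbp2b and Gbp2, while 8.3% of all windows hold them. A match describes the letters only, and binding was not measured.

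The libraries held between 14583055 and 38557029 reads on genes, the fewest in GILZ KO with LPS. Tsc22d3 was at 14.9 to 18.8 TPM (transcripts normalized for length and library total) in untreated WT, at 1.89 to 2.81 in GILZ KO and at 152 to 160 in GILZ TG. With LPS it was at 4.56 to 5.81, 2.5 to 3.28 and 127 to 141 TPM, and GILZ KO then differed from WT 0.619-fold with an adjusted p of 0.150, so that WT and GILZ KO were closer in this gene with LPS. Lyz2 was at 6766 to 15401 TPM in the 6 WT libraries and at 17.2 to 70.3 TPM in the 12 others, so WT differed from both other genotypes at the Cre locus too, and in comparisons with WT this difference and that in Gilz cannot be told apart. The 6 macrophage markers, among them Adgre1 and Csf1r, were above 1 TPM in every library, and Cd3e, Cd3d and Cd8a were at 0 in all 18. GILZ TG preparations 1 and 2 were high in transcripts of other cells. The 4 stromal markers, such as Col1a1, summed to 9.51 to 112 TPM in untreated GILZ TG, 10.8 to 21.3 in WT and 4.58 to 11.02 in GILZ KO, and with LPS to 8.16 to 106, 12.6 to 19.9 and 7.53 to 12.9. The 5 neutrophil markers summed to 50.2 to 358, 17.97 to 43.2 and 21.8 to 43.3 TPM untreated, and to 66.8 to 388, 14.1 to 58.2 and 39.5 to 51.9 with LPS. The 6 B lineage markers summed to 36.1 to 158, 31.0 to 35.5 and 31.5 to 34.9 TPM untreated, and to 26.0 to 149, 19.7 to 22.5 and 16.8 to 19.5 with LPS. The part of these cells in the results was not tested. Calls that involve GILZ TG were also checked without preparations 1 and 2. In the neutrophil and B lineage sums the remaining preparation was also above all WT and GILZ KO libraries of the same treatment. The fit without preparations 1 and 2 leaves 1 GILZ TG library per treatment, so a call lost there does not show where a difference came from. In bulk RNA fewer cells of a type and less RNA per cell cannot be told apart.

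The summed level of the GBPs was far higher with LPS, while single members stayed low. The 8 measured members summed to 15.2 to 17.4 TPM in untreated WT, 19.8 to 26.9 in GILZ KO and 11.8 to 15.7 in GILZ TG. With LPS the sums were 3014 to 3638, 2797 to 3176 and 3309 to 3663 TPM, that is 0.280% to 0.366% of all TPM of a library. Gbp2 ranked between 8001 and 10193 among the 38887 genes of an untreated library and between 61 and 136 with LPS. Gbp2 and Gbp5 made up 70.6% to 73.2% of the sum with LPS, and 38.3% to 55.6% without.

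Gbp2 is the member best known for acting on bacteria and parasites in mouse macrophages and, like Gbp5, carries a lipid anchor at its end. Gbp2 was at 5.95, 7.35 and 7.36 TPM in untreated WT, 11.4, 8.09 and 8.12 in GILZ KO, and 4.93, 3.67 and 6.99 in GILZ TG. After LPS, Gbp2 was at 1474, 1292 and 1256 TPM in WT, 1125, 1339 and 1250 in GILZ KO, and 1411, 1356 and 1583 in GILZ TG. It was the most abundant member in each of the 6 groups, and without treatment preparation 1 of GILZ KO was the highest library.

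Gbp5, which has been linked to inflammasome activation, started lower. Gbp5 was at 1.72, 1.14 and 1.1 TPM in untreated WT, 3.48, 1.60 and 1.47 in GILZ KO, and 0.90, 0.87 and 1.39 in GILZ TG. Its values with LPS were 1101, 929 and 890 TPM in WT, 862, 938 and 850 in GILZ KO, and 990, 1035 and 1098 in GILZ TG. All 3 GILZ KO libraries lay above all 3 GILZ TG libraries without treatment and below them with LPS.

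Gbp3, the next member along chromosome 3 after Gbp7, is among the GBPs whose joint deletion leaves mice susceptible to Toxoplasma. Gbp3 was at 2.0, 2.24 and 1.77 TPM in untreated WT, 4.31, 3.06 and 3.15 in GILZ KO, and 1.64, 1.92 and 2.18 in GILZ TG. Treated with LPS, the libraries were at 556, 500 and 502 TPM in WT, 477, 515 and 517 in GILZ KO, and 494, 498 and 569 in GILZ TG. Untreated GILZ KO lay above both other genotypes without overlap, and with LPS the 3 genotypes overlapped.

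Gbp7, of the same cluster and removed by the same deletion, had a smaller range. Gbp7 was at 1.5, 1.5 and 1.37 TPM in untreated WT, 2.25, 1.87 and 1.98 in GILZ KO, and 1.54, 1.39 and 1.85 in GILZ TG. With LPS it was at 212, 164 and 168 TPM in WT, 166, 170 and 174 in GILZ KO, and 149, 169 and 177 in GILZ TG. Untreated GILZ KO again lay above both other genotypes, by a narrow margin over GILZ TG, and the genotypes overlapped with LPS.

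Gbp2b, the mouse relative of human GBP1, was the exception in the chromosome 3 cluster. It was at 0 in 8 of the 9 untreated libraries, with 1 count in preparation 1 of GILZ KO, and with LPS it was at 0.34, 0.28 and 0.32 TPM in WT, 0.52, 0.58 and 0.12 in GILZ KO, and 0.85, 0.57 and 0.83 in GILZ TG. These levels rest on 3.01 to 51.2 expected counts per library. Its transcript shares 0.873% of its 75-base stretches with Gbp2, which had 26525 to 75566 counts in the same libraries, and the part of such reads in its values was not tested.

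After LPS the members on chromosome 5 were lower than Gbp2, Gbp5 and Gbp3. Gbp9 was at 6.01, 4.63 and 3.42 TPM in untreated WT, 4.99, 5.10 and 4.90 in GILZ KO, and 4.82, 3.78 and 3.08 in GILZ TG. LPS-treated libraries held 190, 139 and 128 TPM in WT, 113, 143 and 127 in GILZ KO, and 152, 157 and 150 in GILZ TG. By its mean Gbp9 was thus next to Gbp2 in each untreated group, while with LPS Gbp2, Gbp5, Gbp3 and Gbp7 all stood above it.

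Gbp4 was close to undetected before treatment. It was at 0.05, 0.09 and 0.08 TPM in untreated WT, 0.34, 0.17 and 0.02 in GILZ KO, and 0.08, 0.09 and 0.16 in GILZ TG, from 1.01 to 22.3 counts. With LPS it was at 101, 73.5 and 67.8 TPM in WT, 52.2, 70.0 and 57.1 in GILZ KO, and 110, 109 and 82.7 in GILZ TG. All GILZ KO libraries lay below all GILZ TG libraries, and WT overlapped with both.

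Gbp8 stayed low. It was at 0.18, 0.08 and 0.11 TPM in untreated WT, 0.14, 0.24 and 0.18 in GILZ KO, and 0.23, 0.12 and 0 in GILZ TG. With LPS it was at 3.21, 1.97 and 1.94 TPM in WT, 1.18, 1.70 and 1.70 in GILZ KO, and 2.93, 3.47 and 2.43 in GILZ TG, from 33.0 to 154 counts. All GILZ KO libraries with LPS lay below those of both other genotypes. Gm43302, the entry at the place of Gbp6, was at 0.34 to 1.06 TPM untreated and at 126 to 166 TPM with LPS.

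**Figure D2:**
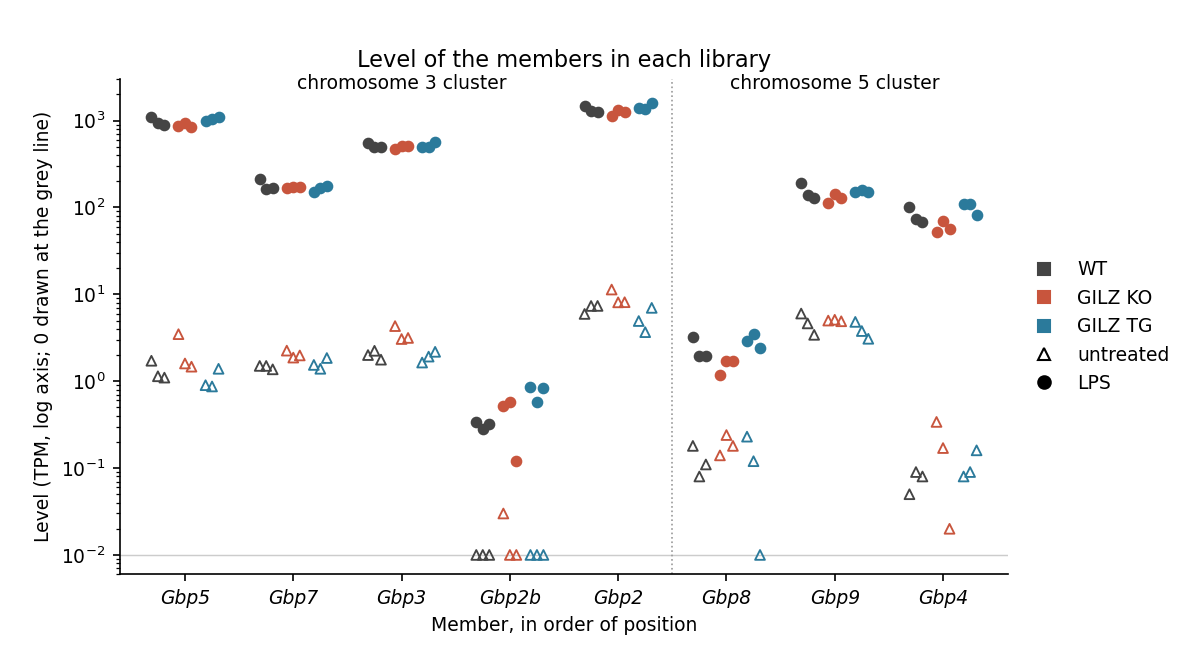
Level of each measured member in each of the 18 libraries, with TPM on a log axis and the members in order of position on the x axis. Triangles stand for untreated libraries, filled circles for LPS, colours for the genotype, and values of 0 are drawn on the grey line. The treatments do not overlap for any member, and Gbp2b and Gbp8 stay below 4 TPM with LPS.

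With LPS the order of the levels was the same in all 3 genotypes, Gbp2, Gbp5, Gbp3, Gbp7, Gbp9, Gbp4, Gbp8 and Gbp2b from the highest down. Neighbours in this order did not overlap between libraries, except Gbp7 and Gbp9 in WT and in GILZ TG. Untreated, the means fell from Gbp2 over Gbp9 to Gbp3 in each genotype, with Gbp2 and Gbp9 apart only in GILZ KO, and behind them Gbp5 and Gbp7 overlapped in every genotype, as did Gbp8 and Gbp4.

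The first comparison asked how the family responded to LPS in each genotype. All 8 measured members rose with LPS in WT, in GILZ KO and in GILZ TG (quasi-likelihood test of edgeR, Benjamini-Hochberg adjusted over 13169 genes). Of all genes tested, 33.5% rose in WT, 33.2% in GILZ KO and 33.6% in GILZ TG. Gbp2b and Gbp8 passed the filter on low counts only through the libraries with LPS, so that their call follows in part from the filter. The median log2 fold change of the members was 7.91 in WT, 7.36 in GILZ KO and 8.46 in GILZ TG, where it was 8.02 with Gbp2b at its lower bound, and that of all genes was -0.02 in each. On the TPM scale the median of all genes shifted to -0.51 in WT and GILZ TG and to -0.52 in GILZ KO, and of the genes called in WT 19.8% were higher instead of 48.9%. All 8 members kept their direction and their call on that scale in each genotype, and in GILZ TG also without preparations 1 and 2.

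Gbp4 and Gbp5 had the largest changes in edgeR, on the log2 scale. The change of Gbp4 rests on few untreated counts, and over the alternatives it lay between 6.23 and 10.84 in WT. For Gbp5 that range was 8.72 to 10.33, and for Gbp3 it was 7.44 to 8.75, so the rank of Gbp4 moved with the setting. Gbp4 rose by 10.67 ± 0.33 (SE, n = 3 per group) in WT, 8.95 ± 0.31 in GILZ KO and 10.49 ± 0.32 in GILZ TG, with adjusted p-values of 1.67e-14, 6.66e-14 and 1.50e-14. Gbp5 rose by 10.15 ± 0.27, 9.26 ± 0.26 and 10.58 ± 0.27 in the same order, which is 1137-fold in WT. Then came the other abundant members of chromosome 3. Gbp3 rose by 8.71 ± 0.16, 7.86 ± 0.15 and 8.71 ± 0.16, Gbp2 by 8.22 ± 0.23, 7.70 ± 0.22 and 8.76 ± 0.23, and Gbp7 by 7.59 ± 0.14, 7.02 ± 0.14 and 7.33 ± 0.14. Gbp9, which had the second highest level without treatment, rose by 5.65 ± 0.20, 5.39 ± 0.20 and 5.96 ± 0.20. Gbp8 rose by 4.86 ± 0.42, 3.62 ± 0.43 and 5.61 ± 0.45. The adjusted p-values of these members lay between 5.07e-17 (Gbp3 and Gbp7 in WT) and 8.19e-07 (Gbp8 in GILZ KO). Gm43302 rose by 8.28 ± 0.15, 7.93 ± 0.15 and 8.54 ± 0.16.

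No fitted fold is given for Gbp2b, whose untreated groups were at or near 0. Against a floor of 3 counts over the 3 untreated libraries it was at least 13.4-fold higher with LPS in WT, from 36.2 counts, and at least 28.1-fold higher in GILZ TG, from 106 counts. In GILZ KO 34.1 counts with LPS stood against 1 without, a ratio of 44.2 per read with an exact binomial 95% interval from 7.38 to 1788, which covers counting error only.

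**Figure D3:**
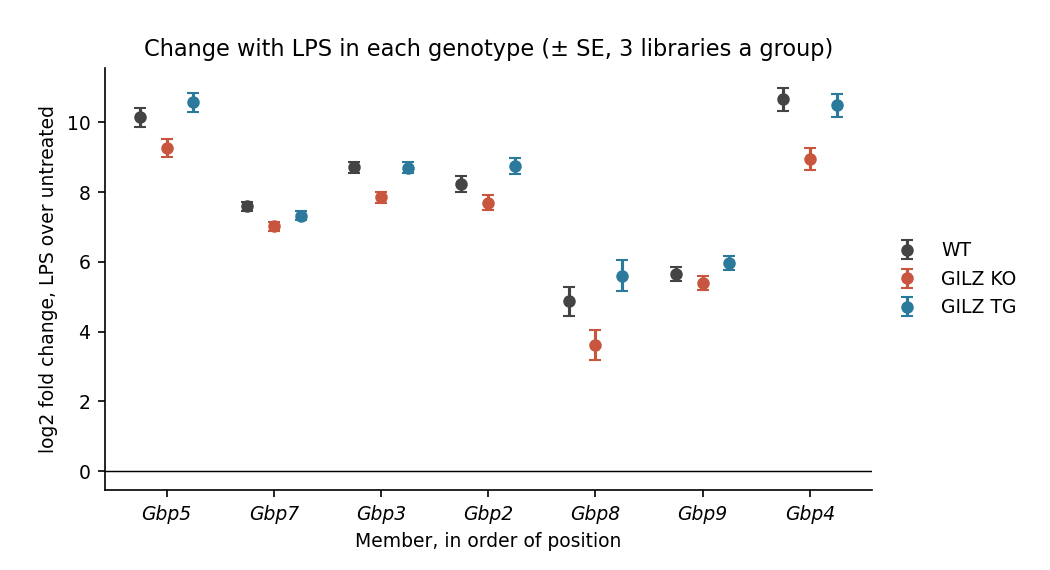
log2 fold change of LPS over untreated for 7 members (y axis) in each genotype, with bars for the standard error and 3 libraries per group. All points lie above 3, Gbp4 and Gbp5 lie highest, and the GILZ KO point is the lowest of the 3 genotypes for each of the 7 members.

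The second comparison asked whether the response to LPS differed between the genotypes, in a fit of all 18 libraries. The 3 differences share groups with each other, so they are not independent. No member passed the test in GILZ KO against WT (0.0152% of all genes did), in GILZ KO against GILZ TG (0.121%) or in GILZ TG against WT (0.00759%) with edgeR. At an unadjusted p under 0.05 there were 4, 5 and 0 of the 8 members, against 6.36%, 9.92% and 3.09% of all genes. DESeq2 called 1, 2 and 0 members, and limma on log2(TPM + 1) and on log2(TPM + 0.1) called 0 in each.

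Of the 6 members that passed the filter without treatment (Gbp2, Gbp3, Gbp4, Gbp5, Gbp7 and Gbp9), all 6 had an estimate below 0 for GILZ KO in both comparisons, as had 42.6% of all genes, with medians of -0.71 and -0.96 on the log2 scale against -0.02 for all genes in both. The bounds of Gbp2b fix no direction for it. Against WT the difference in log2 fold change was -0.85 ± 0.20 (SE) for Gbp3 (adjusted p = 0.449), -0.57 ± 0.18 for Gbp7 (0.621), -0.89 ± 0.33 for Gbp5 (0.683) and -1.72 ± 0.80 for Gbp4 (0.778). Against GILZ TG it was -0.85 ± 0.21 for Gbp3 (adjusted p = 0.124), -1.06 ± 0.26 for Gbp2 (0.125), -1.32 ± 0.34 for Gbp5 (0.149), -1.98 ± 0.69 for Gbp8 (0.284) and -0.57 ± 0.26 for Gbp9 (0.474). For Gm43302 it was -0.60 ± 0.24 (0.366). The value of Gbp8 moved with the setting, to -6.05 without preparations 1 and 2 of GILZ TG, which leaves 1 untreated GILZ TG library with 0 counts, and to -0.73 with limma on log2(TPM + 1). That of Gbp4 against WT lay between -2.18 and -0.54 over the alternatives. Of these differences, DESeq2 called Gbp3 in both comparisons and Gbp2 against GILZ TG. Without preparations 1 and 2 of GILZ TG the difference was -0.79 for Gbp2, -0.83 for Gbp3, -1.04 for Gbp5 and -0.87 for Gbp9, with adjusted p-values between 0.531 and 0.593. Without the untreated library 1 of GILZ KO the difference for Gbp5 was -0.78 (0.439). Without the untreated library 3 of GILZ TG edgeR called Gbp2.

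The third comparison was between genotypes without treatment, in a fit of 9 libraries in which 6 members passed the filter (Gbp2, Gbp3, Gbp4, Gbp5, Gbp7 and Gbp9). edgeR called none of them in GILZ KO against WT, where 0.0951% of all genes were called, in GILZ TG against WT, where 0.642% were, or in GILZ KO against GILZ TG, where 4.94% were. At an unadjusted p under 0.05 there were 2, 0 and 4 of the 6 members, against 9.6%, 14.1% and 24.6% of all genes. In GILZ KO against GILZ TG DESeq2 called Gbp2 and Gbp3 and limma on log2(TPM + 1) called Gbp3, while limma on log2(TPM + 0.1) called none, and in the other comparisons neither tool called a member. For 5 of the 6 members (Gbp2, Gbp3, Gbp5, Gbp7 and Gbp9) all 3 GILZ KO libraries were above all 3 GILZ TG libraries in TPM, which held for 18.6% of all genes tested. Against WT this held for 3 of the 6 (Gbp2, Gbp3 and Gbp7), and for 12.7% of all genes.

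In log2 fold change Gbp3 was higher in GILZ KO by 0.76 ± 0.20 (SE, n = 3 per group) against GILZ TG, with an adjusted p of 0.0551, and by 0.76 ± 0.20 against WT, with an adjusted p of 0.311. Gbp2 differed by 0.80 ± 0.23 between GILZ KO and GILZ TG (adjusted p = 0.0705). Gbp5 differed by 1.03 ± 0.35 (0.111) in that comparison, and Gm43302 by 0.78 ± 0.27 (0.114). Gbp7 differed by 0.32 ± 0.14 against GILZ TG (0.183) and by 0.44 ± 0.14 against WT (0.394). Preparation 1 of GILZ KO held the highest untreated value of Gbp2, Gbp3, Gbp4, Gbp5 and Gbp7, as the plot of libraries against WT shows. Without preparations 1 and 2 of GILZ TG the differences from GILZ KO were 0.35 for Gbp2, 0.56 for Gbp3, 0.62 for Gbp5 and 0.09 for Gbp7. Without the untreated library 1 of GILZ KO they were 0.61, 0.53, 0.51 and 0.24 in the same order. Without the untreated library 3 of GILZ TG edgeR called Gbp2 and Gbp3.

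With LPS all 8 measured members were tested between genotypes. Gbp4 stood lower in GILZ KO, with a difference from GILZ TG of -0.75 ± 0.17 (SE, n = 3 per group) on the log2 scale, 0.594-fold, and an adjusted p of 0.0430. It was the only member called in this comparison, in which 2.60% of all genes were called. Its mean was 59.8 ± 9.18 TPM (SD, n = 3) in GILZ KO, 80.9 ± 17.9 in WT and 100 ± 15.3 in GILZ TG. In 9 fits that left 1 library out the difference stayed between -0.89 and -0.64, and the call was lost in 6 of them, with GILZ KO 1, 2 or 3, GILZ TG 1 or 2 or WT 2 left out (adjusted p from 0.00821 to 0.194). It was also lost with limma on log2(TPM + 1), with an adjusted p of 0.0610. Without preparations 1 and 2 of GILZ TG the difference was -0.51.

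Gbp8, which overlaps Gbp4 in its annotated span, was at -0.97 ± 0.25 in GILZ KO against GILZ TG, with an adjusted p of 0.0644. DESeq2 called it, and without preparations 1 and 2 of GILZ TG it was at -0.72. Gbp5 was at -0.24 ± 0.10 (0.191), and Gm43302 was at 0.19 ± 0.08 (0.241). For 5 of the 8 members (Gbp2, Gbp4, Gbp5, Gbp8 and Gbp9) all 3 GILZ KO libraries were below all 3 GILZ TG libraries, as for 9.36% of all genes tested, and Gm43302 lay the other way. GILZ KO had the lowest depth of the groups with LPS, where Gbp4 still had at least 2246 counts per library and Gbp8 at least 33.0.

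Neither other comparison with LPS had a called member in edgeR, DESeq2 or limma. In GILZ KO against WT, where 0.0822% of all genes were called, 2 of 8 members and 9.63% of all genes had an unadjusted p under 0.05, the members being Gbp8 at -0.66 ± 0.26 (adjusted p = 0.449) and Gbp4 at -0.44 ± 0.17 (0.427). In GILZ TG against WT, where 0.460% were called, 1 of 8 members and 15.2% of all genes had one, the member being Gbp2b at 1.24 ± 0.41 (adjusted p = 0.190). Gm43302 was at -0.24 ± 0.08 there (0.201).

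Gbp2, Gbp5 and Gbp9 thus had GILZ KO libraries above all GILZ TG libraries without treatment and below them with LPS. For Gbp9 the untreated margin was narrow, 4.90 against 4.82 TPM. Of all genes tested 18.6% lay above without treatment and 9.36% below with LPS, and the share with both was not counted. The test of that change of the difference is the one given above for the LPS response, in which none of these members was called.

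Pairs of members differed in how closely they followed each other between the libraries of one treatment. Over the 9 libraries with LPS the correlation of log2(TPM + 1) was 0.96 for Gbp4 and Gbp8 and 0.90 for Gbp2 and Gbp5, but 0.35 for Gbp2 and Gbp7 of the same cluster and 0.11 for Gbp4 and Gbp7. Untreated, it was 0.90 for Gbp3 and Gbp7. On chromosome 5 it was -0.04 for Gbp4 and Gbp9 and -0.14 for Gbp4 and Gbp8, but 0.75 for Gbp8 and Gbp9. Untreated Gbp4 and Gbp8 had at most 22.3 and 7.2 counts per library, so their correlations are uncertain. These values are descriptions over libraries that share their genotype, and no test was made.

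Over all 18 libraries the genes most like the mean of the 7 members with at least 1 TPM on average were Iigp1, Ikzf1, Ifih1, Irgm1 and Parp8, each with r = 0.999, but 406 of 11676 genes had an r above 0.99, since any strong response to LPS gives one. With each treatment centred separately the closest were Ifih1 (r = 0.913), Ifit3 (0.892), Ifit3b (0.887), Tnfsf10 (0.882) and Irgm1 (0.880), which are known interferon-inducible genes.

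The genes that act before the GBPs were described from a fixed list. Of 19 genes of interferon signalling 18 were tested, and in each genotype 16 rose with LPS and 2 fell. Ifnb1, the gene of interferon-beta, was at 0 in all untreated libraries and at 8.52 to 16.4 TPM in WT, 9.77 to 10.6 in GILZ KO and 14.9 to 19.7 in GILZ TG with LPS, at least 128-fold, 89.3-fold and 172-fold higher against a floor of 3 counts over the untreated group. Ifng, the gene of interferon-gamma, was at 0 in 17 of 18 libraries and had 1 count in the other. In WT Usp18, which limits signalling from the receptor, rose by 8.04 ± 0.19 on the log2 scale and Irf1 by 4.4 ± 0.08, while the receptor chain Ifngr1 fell by 0.63 ± 0.07 and Irf3 by 0.45 ± 0.06.

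Between genotypes 3 genes of this list were called, all in GILZ KO against GILZ TG with LPS and all lower. In that comparison 2.60% of all genes were called. The other 15 tested genes of the list were not called, and the median of the list was -0.05 on the log2 scale. Irf1, a factor that acts on GBP promoters, was at -0.45 ± 0.09 (adjusted p = 0.0323), Batf2 at -0.52 ± 0.09 (0.0146) and Irf8 at -0.57 ± 0.11 (0.0285). Irf1 was at 355, 396 and 357 TPM in GILZ KO, 426, 411 and 364 in WT and 527, 532 and 454 in GILZ TG, beside the values of Gbp4 in the same libraries. Without preparations 1 and 2 of GILZ TG Irf1 was at -0.33, Batf2 at -0.41 and Irf8 at -0.46. With single libraries left out, the differences stayed between -0.51 and -0.40 for Irf1, but its call was lost without GILZ KO 1, 2 or 3, GILZ TG 1 or 2 or WT 2 (adjusted p up to 0.161), that of Irf8 without GILZ KO 1, 2 or 3 or GILZ TG 1 or 2 (up to 0.154), and that of Batf2 without GILZ KO 1 or GILZ TG 1 or 2 (up to 0.0780).

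All 13 other interferon-inducible GTPases rose with LPS in each genotype. In WT the largest changes were those of Iigp1 (10.47 ± 0.32) and Mx1 (9.46 ± 0.25), and the smallest were those of Gvin1 (5.33 ± 0.20) and Irgm1 (5.08 ± 0.10). Gbp10 and Gbp11 belong to this list and reached at most 1.39 and 2.73 TPM with LPS, but 75.5% of the 75-base stretches of Gbp10 occur in other genes, chiefly Gm43302, so that its level and its rise are uncertain. With LPS, 3 of the 13 fell short in GILZ KO against GILZ TG, where 2.60% of all genes were called. These were Tgtp1 at -0.86 ± 0.12 (adjusted p = 0.00785), Mx1 at -0.47 ± 0.08 (0.0168) and Mx2 at -0.39 ± 0.08 (0.0285). The other 10 were not called, and the median of the 13 was -0.24. Reads of Tgtp1 and its near copy Tgtp2 can be split by the counting, and Tgtp2 was not called. Without preparations 1 and 2 of GILZ TG Mx1 was at -0.46 and Mx2 at -0.40. With single libraries left out Mx1 was lost without GILZ KO 1 or 3 or GILZ TG 1 (adjusted p up to 0.0972). Mx2 was lost without GILZ KO 1 or 3, GILZ TG 1 or 2 or WT 2 (up to 0.153). In a fit of all 18 libraries neither Mx1 (adjusted p = 0.0997) nor Mx2 (0.0623) was called. The response of Mx2 also differed, by -1.69 ± 0.29 between GILZ KO and GILZ TG (adjusted p = 0.0258).

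The genes the GBPs work with were described beside all 13169 genes tested, of which 4415 rose with LPS in WT and 4622 fell. Of 5 genes for lipid anchors 2 rose with LPS in WT, Pggt1b by 1.07 ± 0.09 and Fnta by 0.26 ± 0.07, and 2 fell, Icmt by 0.76 ± 0.07 and Fntb by 0.45 ± 0.10, but Fnta turned to -0.37 on the log2(TPM + 1) scale. Of 9 genes of the ATG conjugation system, which is needed to bring GBPs to vacuoles, 4 rose, among them Atg16l1 by 1.08 ± 0.05 and Atg3 by 0.59 ± 0.06, and 3 fell, among them Atg7 by 0.34 ± 0.08, while Gabarapl1 was at -0.17 ± 0.08 (adjusted p = 0.0655) and Atg3 turned to -0.04 on the log2(TPM + 1) scale. All 8 genes of inflammasomes and pyroptosis rose in WT and in GILZ TG and 7 in GILZ KO, led by Il1b (10.04 ± 0.56) and Il18 (5.30 ± 0.20) in WT. Casp4, which encodes the LPS sensor caspase-11, rose by 3.63 ± 0.11, Gsdmd by 1.55 ± 0.09 and Pycard by 0.29 ± 0.10, and Pycard turned to -0.33 on the log2(TPM + 1) scale and lost its call without untreated WT 1 or 2 or LPS-treated WT 2 or 3 (adjusted p up to 0.156). Untreated, the sensor gene Nlrp3 was higher in GILZ TG than WT by 0.34 ± 0.06 (adjusted p = 0.0377) and stood at -0.35 ± 0.06 (0.0163) in GILZ KO against GILZ TG, where Casp1 was higher by 0.32 ± 0.08 (0.0447). Without preparations 1 and 2 of GILZ TG these 3 differences were 0.35, -0.36 and 0.16. Each call was lost without several single libraries, with adjusted p-values up to 0.21, 0.0795 and 0.169 in the same order.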

How the data were processed

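RNA of 18 libraries was analysed, with the total per library given above as its depth. The authors mapped directional, poly(A)-selected reads of 75 bases to GRCm38 with grape-nf and used DESeq2 1.40.2, and FastQC 0.11.2 is named in the submitters' processing notes. The annotation release is not given in the sources used here. For each library the authors deposited an expected count per gene, without normalization, and a TPM value, scaled by effective transcript length and library total. Their comparison tables hold fold changes and p-values of the authors' own tests, which were not used, and only their names were read. Names were assigned by transcript with GENCODE M21 to 37952 of 38887 genes and by gene identifier to 50, and 885 had none.

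Expected counts were rounded, filtered with filterByExpr, normalized by TMM and tested by quasi-likelihood in edgeR 4.0.16 (R 4.3.3) at an adjusted p of 0.05. LPS comparisons and differences of responses were fitted on 18 libraries with 6 group means, genotype comparisons on the 9 libraries of a treatment. Groups follow the labels. Replicates are separate cell preparations. Each member is described in every comparison, with fold changes between genotypes where the unadjusted p was under 0.05. List genes are named if called between genotypes or among the 2 largest and 2 smallest LPS changes in WT, besides Ifnb1, Ifng, Irf1 and Casp4, and some items are not reported here. Likeness is Pearson's r with the mean standardized log2(TPM + 1), for the 5 closest genes. The members, lists and tests were chosen with earlier results of these data known. Untreated and LPS libraries with the same number had correlations of deviations from the group means of 0.266, 0.397 and 0.605 in GILZ TG, taken as pairs, and above 0.1 in only 1 of 6 pairs of the other genotypes. The tests were checked on simulated data with 200 changed genes. The 12 alternatives included the size factors of DESeq2 in place of TMM and a filter of at least 10 counts in each library of a group. The other alternatives and the fits without single libraries are named below, and limma 3.58.1 and DESeq2 1.42.0 were used for alternatives. The fit without preparations 1 and 2 of GILZ TG was chosen after seeing the data and leaves 1 GILZ TG library per treatment. Figures were drawn with matplotlib 3.10.9.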

Additional observations from a re-analysis of the deposited data

Results flagged for a closer look

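The response to LPS of Mx2, from the list of other interferon-inducible GTPases, differed between genotypes by edgeR's test of the difference itself. The value was -1.69 on the log2 scale for GILZ KO against GILZ TG, with an adjusted p of 0.0258. Mx2 was at 3.01, 1.79 and 1.30 TPM in untreated GILZ KO and 0.61, 0.87 and 1.02 in untreated GILZ TG, and with LPS at 235, 267 and 230 and at 325, 315 and 312 TPM. The groups did not overlap in either treatment, with GILZ KO higher before and lower after LPS. Over 12 fits without 1 library the difference ranged from -1.92 to -1.27 and was called in 6, being lost without untreated GILZ KO 1 or GILZ TG 1 or 2 and without LPS-treated GILZ KO 1 or 3 or GILZ TG 2. With the untreated library 1 of GILZ KO left out it was -1.27 (adjusted p = 0.0643), and without preparations 1 and 2 of GILZ TG it was -1.43. With only the libraries compared it was -1.69 (0.0653), and with limma -1.07 (0.0570) on log2(TPM + 1) and -1.52 (0.0672) on log2(TPM + 0.1), so that it was not called in these fits either.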

How the results depend on the processing

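All 8 members stayed called with LPS in each genotype under every alternative run, except for Gbp2b, which is not among the protein-coding genes of the comparison tables and was lost in GILZ KO when only its 6 libraries were fitted (7 members each). Counts of members between genotypes were small and moved. In GILZ KO against GILZ TG with LPS the 1 member called became 2 with DESeq2, without a filter and at an adjusted p under 0.1, and 0 with limma on log2(TPM + 1), limma on log2(TPM + 0.1), at an adjusted p under 0.01 and without preparations 1 and 2 of GILZ TG, and ranged from 0 to 2 without single libraries. In GILZ KO against GILZ TG untreated the 0 members called became 2 with DESeq2, without a filter, with all 18 libraries in one fit and at an adjusted p under 0.1, and 1 with limma on log2(TPM + 1) and with protein-coding genes only, and ranged from 0 to 2 without single libraries. For the difference in response between GILZ KO and GILZ TG the count of 0 became 2 with DESeq2 and 3 without a filter, and ranged from 0 to 1 without single libraries, and between GILZ KO and WT it became 1 with DESeq2. The cause was not tested.

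The replicate block left 8 members called with LPS in GILZ TG and changed no other count of members called. It did move adjusted p-values of edgeR for the response of GILZ KO against that of GILZ TG. These went from 0.125 to 0.0505 for Gbp2, from 0.124 to 0.0611 for Gbp3 and from 0.149 to 0.074 for Gbp5. For Gbp9 the change was from 0.474 to 0.0686, and for Gbp8 from 0.284 to 0.145. For named genes 6 changes turned direction, all with LPS in WT on the TPM scale, where the median of all genes is lower: Fnta (-0.369 and -0.375 with a pseudocount of 1 and 0.1), Pycard (-0.328 and -0.333) and Atg3 (-0.045 and -0.046). Of the 5 genes most like the members 1 was shared over 18 libraries and 3 with centred treatments when the pseudocount was 0.1. Gbp2b with LPS, and Gbp4 and Gbp8 before it, rest on few counts. The block took the call of Mx2 between GILZ KO and GILZ TG with LPS (adjusted p = 0.0566).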
